A study of Homo sapiens with 9 samples.

Results

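The 10 genes described here encode the ATR and ATM checkpoint kinases and the proteins that work with them in the response to stalled DNA replication and DNA breaks. They are ATR, ATRIP, TOPBP1, CHEK1, WEE1, CLSPN, TIMELESS, TIPIN, ATM and CHEK2, chosen by symbol for this function. The choice was made with earlier results of these data known. All 10 were present among the 30017 genes of the count table, and all 10 were among the 12712 genes with enough counts to be tested.

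RNA-seq was performed on MOLM13 cells, an established human acute myeloid leukemia line, after lentiviral delivery of GFP and of a short hairpin RNA, which lowers the mRNA it pairs with, and GFP+ cells were sorted on day 4. Of the 3 groups, 1 received the control hairpin sh-Control and the others received hairpins against the RNA helicase DDX41, labelled Sh-DDX41_1 and Sh-DDX41_2 and called shDDX41 #1 and shDDX41 #2 here. Each group had 3 libraries with the replicate letters A, B and D. All 9 libraries came from the same transduced line and differ, by the labels, only in the hairpin. The labels do not say whether the replicates were separate transductions, so p-values measure the spread between these libraries, which may be technical. Each DDX41 hairpin is a single sequence, and its effects on DDX41 and on other transcripts cannot be told apart within 1 hairpin.

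The checkpoint has 2 arms. ATR, bound to its partner ATRIP, is recruited to single-stranded DNA coated by RPA, is activated by TOPBP1 or ETAA1, and phosphorylates CHEK1 with the help of CLSPN and of the fork protection pair TIMELESS and TIPIN. ATM is recruited to double-strand breaks by the MRE11, RAD50 and NBN proteins and phosphorylates CHEK2. WEE1 restrains the cyclin-dependent kinases CDK1 and CDK2 by phosphorylating them, and the CDC25 phosphatases, which CHEK1 and CHEK2 inhibit, remove that phosphate. CLSPN, TIMELESS and TIPIN also travel with the replication fork in undisturbed S phase, and several of these genes are transcribed mainly in cycling cells.

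DDX41 itself was lower with both hairpins. Its level was 117, 114 and 113 CPM (a gene's counts as a share of all counts in the library, with TMM factors) in the sh-Control libraries A, B and D, 12.2, 12.9 and 9.95 with shDDX41 #1, and 38.9, 39.9 and 42.5 with shDDX41 #2. The groups did not overlap. The log2 fold change against sh-Control was -3.29 (SE 0.0881) with shDDX41 #1 and -1.51 (SE 0.0771) with shDDX41 #2, so shDDX41 #1 was the stronger hairpin. The libraries held 16385238 to 20510032 counts. All 8 myeloid markers examined were detected in every library, from CSF1R at 9.82 CPM or more to LYZ at 837 CPM or more. Some moved with the groups. Mean CPM was 931 for LYZ and 112 for MPO with sh-Control, against 1817 and 169 with shDDX41 #2, and CSF1R was at 22.1 with sh-Control against 12.1 with shDDX41 #1. Their part in the results was not tested. Among the markers of other cell types reported here, MS4A1 and HBB had 0 counts in all libraries, CD3E, EPCAM and COL1A1 had at most 12 counts, KRT8 was between 1.49 and 4.00 CPM, and PECAM1, which myeloid cells also express, was between 102 and 190 CPM. PECAM1 moved with the groups, with means of 135 CPM with sh-Control, 102 with shDDX41 #1 and 183 with shDDX41 #2, and its part in the results was not tested. The library of shDDX41 #1 with the letter D differed most from its own group (chi-square per degree of freedom over genes 17.6 and 19.2, against 2.45 or more for all pairs), and each call was repeated without each library.

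The sequences upstream of the annotated start were read for the members with an entry in RefSeq (GRCh38.p14), which gave 14 windows of 250 bases for 9 of the 10 genes. Both strands were searched for CCAAT, for TTTGAA (the CHR element of genes transcribed in G2 and M phase) and for the E2F-type heptamers TTCCCGC as well as TTGGCGC together with TTCGCGC plus the variant TTGCCGC. The letters CCAAT were present in 11 of the 14 windows, against 32% of the 34943 windows of all genes. Counted by gene they were present in 7 of the 9, for which the share over all genes was not computed. Windows of 1 gene can overlap and are not independent. An E2F-type heptamer was present in 2 of the 14 windows, 1 of TIPIN and that of TOPBP1, against 10.8% of all windows. In both windows heptamers on opposite strands overlapped, and that of TOPBP1 read TTGGCGCGAA and ended at the last base before the start. TTTGAA was present in 1 window, of ATM, against 13.4% of all windows. These matches are descriptions of the letters and not evidence of binding.

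The windows of CLSPN and TIMELESS are shown because these 2 genes changed most. Each is printed 5′ to 3′ on the coding strand, which is the minus strand of the chromosome, with CCAAT or its reverse complement ATTGG in capitals. Distances are to the RefSeq start. For both genes the bases just after the window were not found in the GENCODE v29 transcripts, so the 2 annotations differ at the start. The CLSPN window (chr1:35769979-35770228) lies just upstream of the CLSPN gene, and RefSeq places the start of the divergent transcript CLSPN-DT inside it. It holds 3 CCAAT elements in reverse orientation, whose first bases are 119, 94 and 46 bases before the start. The TIMELESS window (chr12:56449427-56449676) lies just upstream of the TIMELESS gene and holds 1 element in forward orientation, 53 bases before the start.
CLSPN: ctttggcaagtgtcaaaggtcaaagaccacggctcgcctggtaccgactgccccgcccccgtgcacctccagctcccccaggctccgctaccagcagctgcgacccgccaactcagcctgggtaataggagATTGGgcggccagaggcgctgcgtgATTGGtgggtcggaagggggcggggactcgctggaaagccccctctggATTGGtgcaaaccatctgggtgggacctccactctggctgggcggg
TIMELESS: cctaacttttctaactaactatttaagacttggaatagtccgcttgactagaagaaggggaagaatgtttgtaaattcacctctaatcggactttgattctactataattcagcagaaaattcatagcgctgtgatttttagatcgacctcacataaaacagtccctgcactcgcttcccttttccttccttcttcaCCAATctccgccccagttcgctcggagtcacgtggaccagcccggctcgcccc

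With the strong hairpin, shDDX41 #1, the mRNA of all 10 genes fell. The falls were largest for TIMELESS and CLSPN, the fork protection and adaptor proteins, at 2.84-fold and 2.62-fold, intermediate for CHEK1, TOPBP1 and WEE1, between 1.447-fold and 1.551-fold, and smallest for the apical kinases ATR and ATM, at 1.23-fold and 1.22-fold. All 10 were called lower by edgeR's quasi-likelihood test at an adjusted p under 0.05 (Benjamini-Hochberg over all 12712 genes), where 24.1% of all tested genes were called lower and 23.7% higher. For all 10 genes the 3 libraries of shDDX41 #1 lay below the 3 of sh-Control, whereas the groups did not overlap in either direction for 53.1% of all tested genes. All 10 were also called without the shDDX41 #1 library D, and 9 without the sh-Control library B, where ATR was not called (adjusted p = 0.0633). With upper quartile factors the share of rises among all calls was larger (3849 of 6302, against 3010 of 6078), and the 10 genes were still called lower. The median log2 fold change of the 10 genes was -0.50, with a range from -1.51 to -0.29, and the median of all tested genes was 0.01. Since RNA was taken from bulk cells, fewer cells expressing a gene and less of its RNA per cell cannot be told apart.

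**Figure D1:**
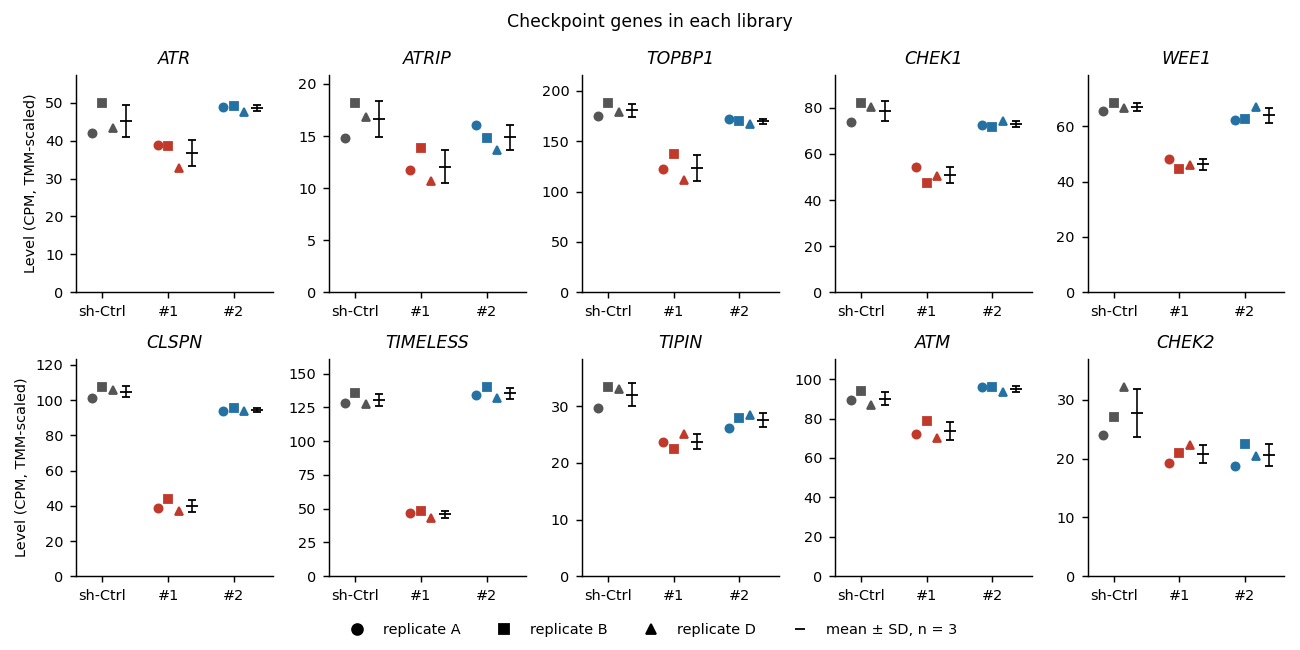
Level of each of the 10 genes in CPM (vertical axes from 0) in the 3 libraries of sh-Control, shDDX41 #1 and shDDX41 #2, with replicate letters as symbols and mean ± SD (n = 3) in black. With shDDX41 #1 all 3 libraries lie below the control libraries in all 10 panels, and with shDDX41 #2 most panels overlap the controls.

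TIMELESS (chromosome 12, 56416373 to 56449403, GRCh38), which binds TIPIN at the replication fork, had 128, 135 and 127 CPM in the sh-Control libraries, 46.6, 48.0 and 43.0 with shDDX41 #1, and 134, 140 and 132 with shDDX41 #2. The shDDX41 #1 libraries lay far below both other groups, which overlapped. The log2 fold change with shDDX41 #1 was -1.505 (SE 0.067, adjusted p = 8.1e-10), the 82nd lowest of the 12712 tested genes. With shDDX41 #2 it was 0.06, with a 95% interval from -0.08 to 0.19 (adjusted p = 0.549). Between the hairpins the difference was -1.56 (SE 0.067, adjusted p = 7.0e-10). Of the 10 genes, TIMELESS had the largest difference between the hairpins.

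TIPIN (chromosome 15, 66336206 to 66386746), the partner of TIMELESS, moved much less. Its levels were 29.6, 33.4 and 33.0 CPM with sh-Control, 23.8, 22.4 and 25.0 with shDDX41 #1, and 26.2, 28.0 and 28.4 with shDDX41 #2. The 3 groups did not overlap, with shDDX41 #2 between the other two. TIPIN fell by 0.43 on the log2 scale with shDDX41 #1 (SE 0.0819, adjusted p = 5.5e-04), and its estimate with shDDX41 #2 was -0.22 (SE 0.0805, adjusted p = 0.0612). The difference between the hairpins, -0.21 (SE 0.0826, adjusted p = 0.0431), was near the threshold and was not called under several other settings, among them the DESeq2 Wald test (adjusted p = 0.0533). The processed pseudogene RPL9P25 shares 579 exonic bases with TIPIN on the same strand in GENCODE v29 and is not a row of the table.

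CLSPN (chromosome 1, 35720218 to 35769967), or claspin, brings CHEK1 to ATR. Its level was 101, 107 and 106 CPM with sh-Control, 38.9, 43.9 and 37.0 with shDDX41 #1, and 93.6, 95.6 and 93.9 with shDDX41 #2. The groups did not overlap, and the shDDX41 #2 libraries lay close below the controls. CLSPN fell by 1.39 on the log2 scale with shDDX41 #1 (SE 0.0716, adjusted p = 3.1e-09), against -0.15 (SE 0.0681, adjusted p = 0.119) with shDDX41 #2. The difference between the hairpins was -1.24 (SE 0.0716, adjusted p = 7.7e-09). CLSPN shares 280 exonic bases on the opposite strand with the antisense gene AL354864.1, which is not listed by that name among the counted genes.

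CHEK1 (chromosome 11, 125625136 to 125676255), the effector kinase of the ATR arm, had 73.7, 82.2 and 80.2 CPM with sh-Control, 54.2, 47.5 and 50.5 with shDDX41 #1, and 72.5, 71.9 and 74.3 with shDDX41 #2. All shDDX41 #1 libraries were below the other 6. CHEK1 fell by 0.63 on the log2 scale (SE 0.0703, adjusted p = 4.0e-06) with shDDX41 #1. The estimate with shDDX41 #2 was -0.11 (95% interval -0.26 to 0.04, adjusted p = 0.259), and the hairpins differed by -0.52 (SE 0.0703, adjusted p = 2.5e-05). CHEK1 shares 80 exonic bases with STT3A on the same strand. STT3A, looked up after the values were seen, was itself lower with shDDX41 #1 (log2 fold change -0.25, SE 0.0634, adjusted p = 0.00441), and the part of shared reads in the CHEK1 value was not tested.

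WEE1 (chromosome 11, 9573681 to 9593457), the kinase that holds CDK1 and CDK2 inactive, was at 65.7, 68.5 and 66.5 CPM with sh-Control, 48.3, 44.4 and 45.9 with shDDX41 #1, and 62.3, 62.7 and 67.0 with shDDX41 #2. Its shDDX41 #1 libraries stood apart and those of shDDX41 #2 overlapped the controls. With shDDX41 #1 the log2 fold change was -0.53 (SE 0.0652, with adjusted p = 1.1e-05), and it was -0.06 (95% interval -0.20 to 0.07, adjusted p = 0.495) with shDDX41 #2. Between the hairpins it was -0.47 (SE 0.0653, adjusted p = 3.3e-05).

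TOPBP1 (chromosome 3, 133598175 to 133662380), which activates ATR, had the highest CPM of the 10 genes. It stood at 175, 188 and 179 CPM with sh-Control, 122, 137 and 111 with shDDX41 #1, and 172, 170 and 168 with shDDX41 #2. The groups did not overlap, but the gap between the lowest control and the highest shDDX41 #2 library was small. TOPBP1 fell by 0.55 on the log2 scale (SE 0.0735, adjusted p = 2.4e-05) with shDDX41 #1 and had an estimate of -0.09 (95% interval -0.24 to 0.07, adjusted p = 0.405) with shDDX41 #2, and the hairpins differed by -0.46 (SE 0.0735, adjusted p = 1.1e-04).

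ATR (chromosome 3, 142449235 to 142578826) and its partner ATRIP (chromosome 3, 48446710 to 48467645) moved less than TIMELESS and CLSPN with the strong hairpin. ATR was at 42.1, 50.0 and 43.5 CPM with sh-Control, 38.9, 38.5 and 32.7 with shDDX41 #1, and 49.0, 49.2 and 47.7 with shDDX41 #2. It fell by 0.30 on the log2 scale with shDDX41 #1 (SE 0.0855, adjusted p = 0.00932), a call that was lost without the sh-Control library B (log2 fold change -0.22, adjusted p = 0.0633). With shDDX41 #2 the estimate had the other sign, 0.11 (95% interval -0.07 to 0.28, adjusted p = 0.382). The difference between the hairpins, -0.41 (SE 0.0852, adjusted p = 0.00111), was larger than the difference of shDDX41 #1 from the controls. ATR shares 2048 exonic bases on the opposite strand with the processed pseudogene AC109992.1, which is not listed by that name among the counted genes. The part of shared reads in the ATR values was not tested.

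ATRIP, the lowest of the 10 genes, had 14.8, 18.2 and 16.8 CPM with sh-Control, 11.7, 13.8 and 10.7 with shDDX41 #1, and 16.1, 14.8 and 13.7 with shDDX41 #2. Only the sh-Control and shDDX41 #1 libraries were separate. Against sh-Control, ATRIP fell by 0.46 on the log2 scale (SE 0.122, adjusted p = 0.00593) with shDDX41 #1, and the estimate was -0.16 (95% interval -0.41 to 0.09, adjusted p = 0.357) with shDDX41 #2, and the difference between the hairpins, -0.30 (SE 0.122, adjusted p = 0.0536), just missed the threshold. ATRIP shares 1515 exonic bases on the same strand with TREX1, an exonuclease gene, and how reads in that stretch were assigned is not given in the sources used here. TREX1 had a log2 fold change of -0.20 (SE 0.128, adjusted p = 0.211) with shDDX41 #1.

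ATM (chromosome 11, 108222484 to 108369102), the apical kinase of the break response, was at 89.2, 93.8 and 87.1 CPM with sh-Control, 72.2, 78.9 and 70.1 with shDDX41 #1, and 95.8, 96.0 and 93.3 with shDDX41 #2. The shDDX41 #1 libraries lay below all others. ATM fell by 0.29 on the log2 scale (SE 0.0659, adjusted p = 0.00217) with shDDX41 #1, and had an estimate of 0.08 (95% interval -0.06 to 0.22, adjusted p = 0.412) with shDDX41 #2, and the hairpins differed by -0.37 (SE 0.0658, adjusted p = 3.2e-04). NPAT, the histone gene activator that is transcribed away from ATM and shares 143 exonic bases with it on the opposite strand, had a log2 fold change of -0.17 (SE 0.0997, adjusted p = 0.17) with shDDX41 #1.

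CHEK2 (chromosome 22, 28687743 to 28742422), the effector kinase downstream of ATM, was at about the same level with both hairpins. Its levels were 24.04, 27.1 and 32.2 CPM with sh-Control, 19.2, 20.9 and 22.3 with shDDX41 #1, and 18.8, 22.5 and 20.5 with shDDX41 #2. Both hairpin groups lay below the controls and overlapped each other. CHEK2 fell by 0.42 on the log2 scale (SE 0.112, adjusted p = 0.0065) with shDDX41 #1 and by 0.43 (SE 0.111, adjusted p = 0.0107) with shDDX41 #2. The difference between the hairpins was 0.02, with a 95% interval from -0.23 to 0.26 (adjusted p = 0.918), so a difference of up to that size is not excluded by these data. The control libraries ranged from 24.04 to 32.2 CPM, and the shDDX41 #2 call was lost without the sh-Control library D (log2 fold change -0.31, adjusted p = 0.0575) and without the shDDX41 #2 library A (-0.37, adjusted p = 0.0564). CHEK2 has 4 named pseudogenes in GENCODE v29. Of these, CHEK2P2 had 0 counts in all libraries, and the others are not listed by name among the counted genes. CHEK2 shares 301 exonic bases on the opposite strand with HSCB. HSCB, looked up after the values were seen, was higher with shDDX41 #1 (log2 fold change 0.45, SE 0.131, adjusted p = 0.0108). The part of the pseudogenes and of HSCB in the CHEK2 values was not tested.

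**Figure D2:**
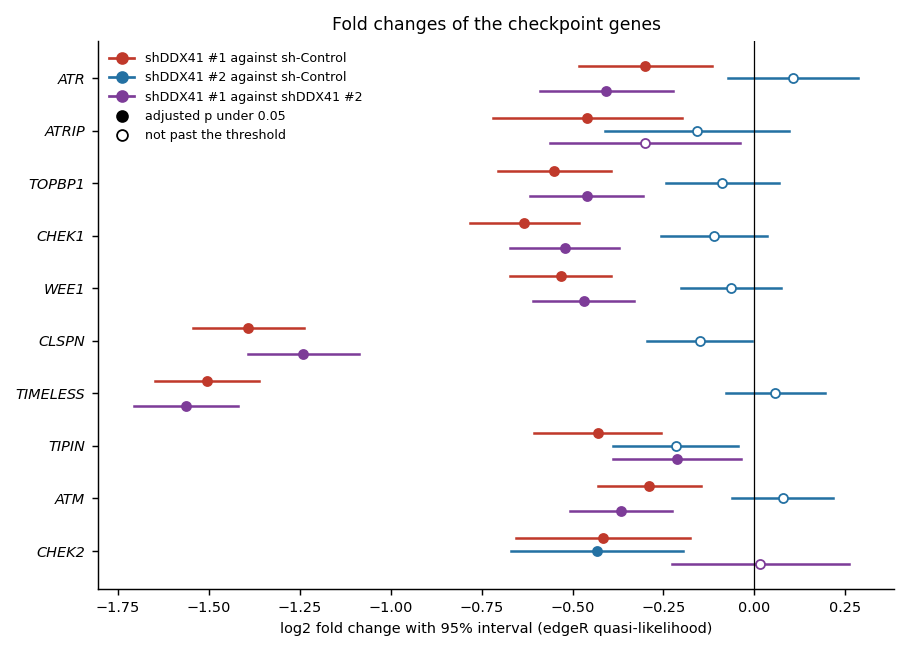
The log2 fold change (horizontal axis, points) with its 95% interval (lines) of each gene in the 3 comparisons, with filled points where the adjusted p was under 0.05. The intervals of TIMELESS and CLSPN for shDDX41 #1 against sh-Control lie below -1.2. CHEK2 is the gene with a filled point for shDDX41 #2 against sh-Control.

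With the partial hairpin, shDDX41 #2, CHEK2 was thus the 1 gene of the 10 that was called, lower, where 13.4% of all tested genes were called lower and 11.6% higher. The other 9 did not pass the test. The groups did not overlap for 4 of the 10, CHEK2, CLSPN, TIPIN and TOPBP1, against 43.8% of all tested genes, so neither share stands above that of all genes. The median log2 fold change of the 10 genes was -0.10, from -0.43 to 0.11, beside -0.01 over all tested genes. Both hairpins were compared with the same 3 control libraries, so the 2 comparisons are not independent.

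Compared directly, shDDX41 #1 was lower than shDDX41 #2 in 8 of the 10 genes and none was higher, where 24.2% of all tested genes were called lower and 24.6% higher. ATRIP and CHEK2 were the 2 not called. The groups did not overlap for the 8 called genes, against 57.7% of all tested genes. The median difference of the 10 genes was -0.43, with 0.01 over all genes. An exact permutation test of 3 against 3 libraries cannot give a p under 0.1, which is the value reached by each gene whose groups did not overlap, so the calls rest on the model fitted across all genes.

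**Figure D3:**
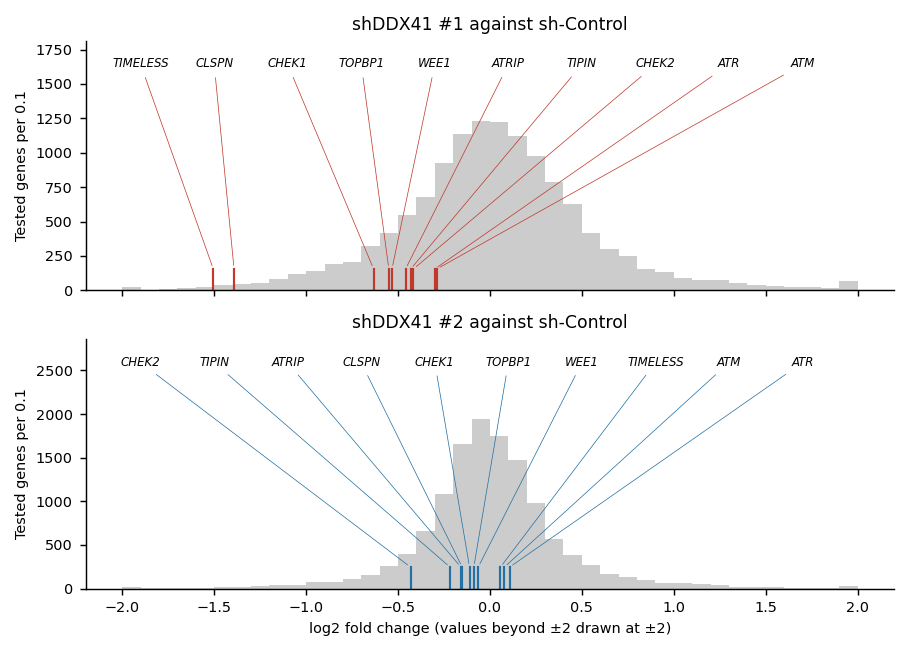
Histogram of the log2 fold changes of all 12712 tested genes (grey, number of genes in steps of 0.1) for each hairpin against sh-Control, with the 10 genes marked as colored lines. With shDDX41 #1 all 10 lie to the left of the middle of the distribution and TIMELESS and CLSPN in its tail, whereas with shDDX41 #2 they lie near the middle apart from CHEK2.

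TIMELESS and TIPIN, whose proteins act as a pair, did not keep their proportions with shDDX41 #1. Ratios of the counts of 2 genes within a library do not depend on how libraries are scaled, and 5 pairs were examined, chosen after the values were seen. The ratio of TIMELESS to TIPIN counts was 4.32, 4.06 and 3.86 in the sh-Control libraries, 1.96, 2.14 and 1.72 with shDDX41 #1, and 5.13, 5.01 and 4.64 with shDDX41 #2. It was lower than in the controls in all 3 libraries of the strong hairpin and higher in all 3 of the partial hairpin. The exact permutation test gave p = 0.1 in both comparisons, the smallest value it can give. Neither gene was called by itself with the partial hairpin, and how often other gene pairs separate the groups was not computed. The means were 4.08 ± 0.23 (SD, n = 3), 1.94 ± 0.208 and 4.92 ± 0.256. The ratio of CLSPN to CHEK1 counts was 1.33 ± 0.0354 with sh-Control, 0.791 ± 0.116 with shDDX41 #1 and 1.29 ± 0.0332 with shDDX41 #2, so that CLSPN counts exceeded those of CHEK1 in 6 of the 6 control and shDDX41 #2 libraries and in 0 of the 3 of shDDX41 #1.

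The other 3 pairs each hold a kinase and its partner or target. ATR to ATRIP was 2.73 ± 0.136 with sh-Control, 3.06 ± 0.271 with shDDX41 #1 and 3.29 ± 0.216 with shDDX41 #2 (SD, n = 3). The control and shDDX41 #1 libraries overlapped and those of shDDX41 #2 were above the controls. ATR to CHEK1, the apical against the effector kinase, was 0.574 ± 0.0334 with sh-Control and higher in all libraries with either hairpin, at 0.725 ± 0.0822 and 0.667 ± 0.0225. ATM to CHEK2 was 3.29 ± 0.522 with sh-Control and 3.55 ± 0.358 with shDDX41 #1, which overlapped, and 4.64 ± 0.43 with shDDX41 #2, above both.

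**Figure D4:**
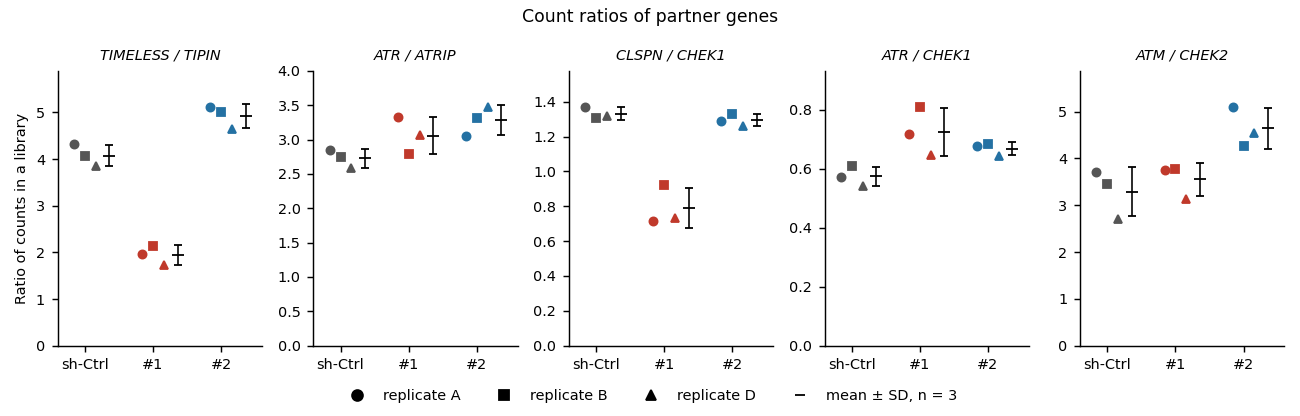
Ratio of the counts of 2 partner genes within each library (vertical axes from 0) in the 3 groups, with replicate letters as symbols and mean ± SD (n = 3) in black. The TIMELESS to TIPIN ratio separates all 3 groups, and the CLSPN to CHEK1 ratio separates shDDX41 #1 from the other groups.

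Per kilobase of exon the order of the levels also changed. With sh-Control the order was TOPBP1 at 29.3 ± 1.1 CPM per kb (SD, n = 3), TIMELESS at 25.4 ± 0.882, CLSPN at 21.1 ± 0.644, TIPIN at 18.3 ± 1.17, CHEK1 at 16.1 ± 0.906, WEE1 at 15.7 ± 0.333, CHEK2 at 12.1 ± 1.79, ATR at 5.48 ± 0.512, ATM at 4.92 ± 0.188 and ATRIP at 3.25 ± 0.336. The neighbors CHEK1 and WEE1, and ATR and ATM, overlapped. With shDDX41 #1 TIMELESS, at 8.95 ± 0.498 CPM per kb, and CLSPN, at 8.03 ± 0.714, had moved to the sixth and the seventh place, below TIPIN (13.6 ± 0.731), and from WEE1 to CLSPN each gene overlapped the next. With shDDX41 #2 the order was close to that of the controls, with TOPBP1 (27.6 ± 0.397) and TIMELESS (26.4 ± 0.828) overlapping. Exon lengths were those of all GENCODE v29 basic transcripts together, and the transcripts used in MOLM13 cells may be shorter.

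The genes whose levels over the 9 libraries were most like those of the kinases differed between the kinases. Among 9833 genes with a mean of at least 5 CPM, Pearson's r of log2 CPM was highest with ATR for CEP290 (r = 0.992), DLG1 (0.986) and ATP11B (0.984). For ATM the nearest were NIN (0.991), FANCC (0.989) and EIF4G3 (0.988), and for CHEK1 they were CCSAP (0.993), COMMD2 (0.993) and WDHD1 (0.992). The genes nearest to CHEK2 were TMX2 (0.9752), IDH1 (0.964) and FAM136A (0.958), which had lower mean levels with both hairpins, such as TMX2 at 111 CPM with sh-Control, 93.1 with shDDX41 #1 and 93.8 with shDDX41 #2. The points are 9 libraries in 3 groups and these correlations mainly describe differences between groups.

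Genes of the proteins that load and surround ATR at RPA-coated DNA were examined next. Of 10 genes of the 9-1-1 clamp, its loader and RPA, 6 fell, 1 rose and 3 did not pass the test with shDDX41 #1, beside 24.1% of all tested genes called lower and 23.7% called higher. The median log2 fold change was -0.43. RHNO1, which links the clamp to TOPBP1, was at -0.55 (adjusted p = 6.6e-05), RPA1, the large RPA subunit, at -0.44 (adjusted p = 7.8e-05), and HUS1, a clamp subunit, rose by 0.25 (adjusted p = 0.0391). With shDDX41 #2 none of the 10 was called by edgeR, and the median was -0.04.

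On the ATM side, 5 of 9 genes of break sensing and mediator proteins fell and 2 rose with shDDX41 #1, beside 24.1% and 23.7% of all tested genes, with a median of -0.28. NBN fell by 0.72 on the log2 scale (adjusted p = 3.0e-07) and RAD50 rose by 0.27 (adjusted p = 0.00235), although both proteins form a complex with MRE11. H2AFX, the histone that ATM phosphorylates beside breaks, was at -0.70 (adjusted p = 9.5e-07), and KAT5, the acetyltransferase that activates ATM, at 0.24 (adjusted p = 0.0105). With shDDX41 #2, 3 of the 9 fell and 1 rose, beside 13.4% and 11.6% of all tested genes. RAD50 rose by 0.32 (adjusted p = 0.0018), H2AFX was at -0.28 (adjusted p = 0.00629) and KAT5 fell by 0.23 (adjusted p = 0.0263).

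All 6 genes of the CDC25 phosphatases, PKMYT1, CDK1 and CDK2, on which the checkpoint acts, were called lower with shDDX41 #1, beside 24.1% of all tested genes, with a median of -0.90, led by PKMYT1, a kinase related to WEE1, at -1.68 (adjusted p = 4.7e-09) and CDK1 at -1.37 (adjusted p = 3.7e-08). With shDDX41 #2, 2 of the 6 were called lower, beside 13.4% of all tested genes, namely CDC25A at -1.28 (adjusted p = 1.5e-08) and CDK2 at -0.23 (adjusted p = 0.0347). CDC25A, the phosphatase degraded after CHEK1 or CHEK2 is activated, was lower with the partial hairpin, at a mean of 32.0 CPM, than with the strong one, at 47.0, from 77.5 in the controls.

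The fall of the 10 checkpoint genes with shDDX41 #1 came with a fall of S phase genes. CHEK2 was at -0.42 with shDDX41 #1 and -0.43 with shDDX41 #2. The S phase genes were 41 genes of a common list, from which any of the 10 genes described here were left out. With shDDX41 #1, 40 fell and RPA2 did not pass the test, beside 24.1% of all tested genes called lower. The median log2 fold change of the 41 genes was -0.82. With shDDX41 #2, 8 fell and 33 did not pass, beside 13.4% called lower, with a median of -0.09. Those that fell included MCM6 (-0.98, against -0.61 with shDDX41 #1) and CDCA7 (-0.42, against -0.76). A fall with both hairpins was thus not particular to CHEK2. Summed over the 41 genes the level was 6981 to 7360 CPM in the sh-Control libraries, 3718 to 4135 with shDDX41 #1 and 6479 to 6769 with shDDX41 #2. The sum of the 10 checkpoint genes was 743 to 804, 448 to 495 and 738 to 751 CPM in the same groups. In the controls TOPBP1, TIMELESS and CLSPN had the highest levels in this sum, so it says little about the lower genes. The part of the S phase genes in the fall of the checkpoint genes was not tested.

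**Figure D5:**
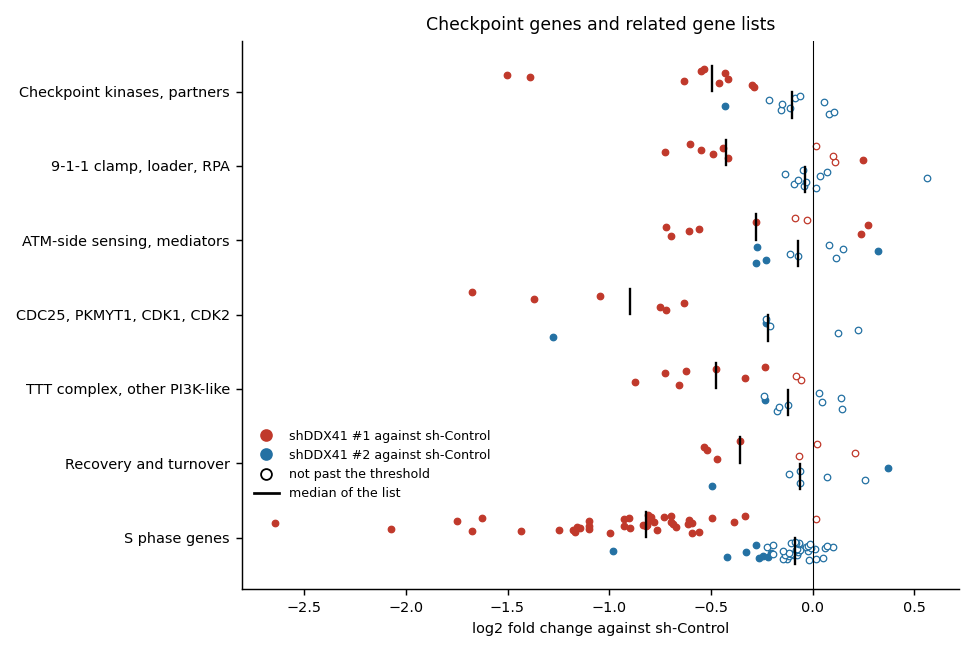
The log2 fold change against sh-Control (horizontal axis) of each gene of the 10 checkpoint genes and of 6 related lists, in red for shDDX41 #1 and blue for shDDX41 #2, filled where the adjusted p was under 0.05, with the list's median as a black bar. With shDDX41 #1 the medians lie between -0.90 and -0.28, and with shDDX41 #2 between -0.22 and -0.04.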

How the data were processed

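RNA from sorted MOLM13 cells (3 groups, 9 libraries) was sequenced by the authors. The submitters' processing notes name FastQC 0.11.7, HISAT2 2.0.5 and featureCounts 1.5.2 and the builds hg38 and mm10, and the deposited table holds whole-number counts per gene, not normalized. The labels name a stranded kit and the study's methods an unstranded one, so genes that overlap on either strand are uncertain. How reads shared by genes were counted is not given in the sources used here. All columns were mapped to libraries.

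The software was edgeR 4.0.16 (R 4.3.3). Low genes were removed with filterByExpr (minimum count 10), scaling used TMM, and the 9 libraries entered 1 quasi-likelihood fit with the group as the only factor. Tests were two-sided, and p-values were adjusted by Benjamini-Hochberg over all 12712 tested genes (threshold 0.05). The SE is the log2 fold change divided by the square root of F. The libraries held 16385238 to 20510032 counts, and the biological coefficient of variation over all genes was 0.0768. The scripts were tested on simulated data. Levels per kb and loci used GENCODE v29 (GRCh38).

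All 10 genes and DDX41 were named whatever their result. From each further list, up to 2 called rises and 2 called falls with the smallest adjusted p per hairpin could be named, and for ATR, ATM, CHEK1 and CHEK2 the 3 genes of highest correlation (log2 CPM with prior count 2). The genes and lists were chosen with earlier results of these data known. Lists share genes (RPA2 is in 2). A planned count of phosphorylation motifs in the proteins was not run. Other factors, filters, tests (DESeq2 1.42.0, limma 3.58.1), sample sets and thresholds were tried.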

Additional observations from a re-analysis of the deposited data

Results flagged for a closer look

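For 3 of the genes the estimated effects of the hairpins against sh-Control had opposite signs and the difference between the hairpins was called by edgeR. TIMELESS had log2 fold changes of -1.505 with shDDX41 #1 and 0.06 with shDDX41 #2, a difference of -1.56 (adjusted p = 7.0e-10). ATR had -0.30 and 0.11, a difference of -0.41 (adjusted p = 0.00111), and ATM had -0.29 and 0.08, a difference of -0.37 (adjusted p = 3.2e-04). The values with shDDX41 #2 were not called for any of the 3 genes, so a rise with that hairpin is not shown.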

How the results depend on the processing

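The log2 fold changes of the 10 genes in the 3 comparisons kept their direction and their side of the threshold in 261 of 270 repeats with another normalization, filter, test, sample set or block, and in 255 of 270 repeats that left out 1 library. With shDDX41 #1 all 10 genes were called under every setting of the first kind, and 9 to 10 without 1 library. With shDDX41 #2 the count of 1 became 2 with library sizes only (TIPIN was added), 0 at an adjusted p under 0.01, and 0 to 2 without 1 library. Between the hairpins it was 7 to 9, without 1 library and under the other settings, since TIPIN (lost without any of 6 libraries) and ATRIP (gained without any of 2, with the log2 difference -0.41 and adjusted p = 0.0183 without the shDDX41 #1 library B) lay at the threshold. CHEK2 turned sign between the hairpins without the shDDX41 #1 library D (-0.034) and without the shDDX41 #2 library A (-0.048), from a range of -0.048 to 0.088 over the libraries left out, and was not called in either. With shDDX41 #2 the calls over all genes, 3174, became 1670 at an adjusted p under 0.01 and ranged from 2054 (without its library B) to 4248 (without the shDDX41 #1 library D) when 1 library was left out. With the replicate letter as a block, 10, 1 and 9 genes were called in the 3 comparisons instead of 10, 1 and 8, ATRIP being added (adjusted p = 0.0386). The main fit did not treat the letters as pairs, and the labels do not say whether they mark pairs. Deviations from the group means correlated by -0.057 to 0.243 between libraries of the same letter and by -0.184 to 0.066 between different letters. Between sh-Control and shDDX41 #1 the values of the same letter were 0.073, 0.158 and 0.243. Over all genes the block gave 6351, 3570 and 6503 calls in the 3 comparisons, against 6078, 3174 and 6204 in the main fit. Causes of these changes were not tested. ATRIP and CHEK2, the lowest 2 of the 10 genes in CPM in the controls, had the largest SE with shDDX41 #1 (0.122 and 0.112).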

Other observations

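The TTT chaperone complex stabilizes ATR, ATM and the other kinases of their family. A list of 9 genes held the TTT complex, its RUVBL partners and the client proteins PRKDC, SMG1, MTOR and TRRAP. The mRNA of 7 fell and none rose with shDDX41 #1, beside 24.1% of all tested genes called lower and 23.7% higher. RUVBL1 and SMG1 did not pass the test. The list had a median log2 fold change of -0.48, beside 0.01 over all tested genes. PRKDC, the catalytic subunit of DNA-PK, was at -0.88 (adjusted p = 8.6e-05) and TELO2, which binds the newly made kinases, at -0.73 (adjusted p = 1.2e-06) in the edgeR fit. With shDDX41 #2 TELO2 was the 1 gene of the 9 called, beside 13.4% of all tested genes called lower, at -0.23 (adjusted p = 0.0232), and the median was -0.12.

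Among 7 genes that end the checkpoint or control the turnover of CLSPN and WEE1, 4 fell and none rose with shDDX41 #1, beside 24.1% and 23.7% of all tested genes, with a median of -0.36. PLK1, the mitotic kinase that marks both proteins for degradation, was at -0.53 (adjusted p = 1.6e-04), and FBXW11, an F-box protein of the ligase that degrades them, at -0.52 (adjusted p = 8.1e-05). With shDDX41 #2, 1 fell and 1 rose, beside 13.4% and 11.6% of all tested genes. AURKA, which activates PLK1, fell by 0.49 on the log2 scale (adjusted p = 0.00124) and USP28, a deubiquitinase that stabilizes CLSPN, rose by 0.37 (adjusted p = 0.0299), while the median was -0.06.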
